A study of Mus musculus with 12 samples.

Results

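The genes of the mitochondrial respiratory chain and the ATP synthase were followed in the mouse thymus at 3 ages. They were chosen by symbol from the mRNA table: every gene whose symbol starts with mt-, Nduf, Uqcr, Cox4, Cox5, Cox6, Cox7, Cox8 or Atp5, together with Sdha, Sdhb, Sdhc and Sdhd, after the estimated counts of all transcripts of a symbol had been summed. This gave 107 of the 22843 genes in the table, of which 13 are encoded by mitochondrial DNA and 94 by nuclear DNA. The rule uses symbols and no measured value. By prefix, the set also holds 8 assembly factors of complex I, the symbols Ndufaf1 to Ndufaf8. The genes Atp5s and Atp5sl are counted with complex V below from their symbols alone. Wild type male C57BL/6 mice contributed 2 thymus libraries at 2 weeks (2W), 2 at 6 weeks (6W) and 2 at 3 months (3M). The methods call them biological replicates and do not say whether a library holds 1 thymus or several. The study asked which RNAs differ while the thymus grows, 6W relative to 2W, and while it declines, 3M relative to 6W. Whole thymus was used, so fewer cells of a type and less RNA per cell cannot be told apart in any value below.

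The respiratory chain passes electrons from NADH and succinate to oxygen through complexes I to IV, and complex V, the ATP synthase, uses the proton gradient that results. Complexes I, III, IV and V combine subunits made inside the mitochondrion with subunits made from nuclear genes and imported, whereas complex II, the succinate dehydrogenase, is nuclear alone. The mitochondrial genes are copied as long transcripts from each strand and then cut apart, and of the protein genes mt-Nd6 alone lies on the light strand. Several nuclear subunits of complex IV exist as pairs of isoforms, of which one is found in most tissues and the other mainly in muscle or brown fat.

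The 6 libraries held 16519753 to 22553481 estimated counts. Levels are given as CPM, the counts divided by TMM-scaled library sizes, and as FPKM, which also divides by transcript length, where genes are compared with each other. Of the members, 103 passed edgeR's filter on low counts, 13 mitochondrially encoded and 90 nuclear. The other 4 are complex IV isoforms. The genes Cox7b2 and Cox8c had no count in any library, Cox4i2, the lung isoform of subunit 4, had 0 to 6 counts, and Cox6a2, the heart and muscle isoform of subunit 6a, had 0 to 9. A count of 0 leaves room for up to 3 counts, and such limits cover counting error only. The tissue label was borne out by Rag1, the recombinase gene of immature thymocytes, at 7542 to 11178 CPM. Many members have processed copies in the genome, and mt-Atp8 with mt-Atp6 and mt-Nd4l with mt-Nd4 share bases, so single values of these can hold reads of a neighbour or a copy.

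On the FPKM scale, the mitochondrially encoded genes of complex IV stood highest. Averaged over the 6 libraries, mt-Co1 reached 3339 FPKM. The level of mt-Co3 was 3305 FPKM and that of mt-Co2, the other complex IV gene of mitochondrial DNA, was 649 FPKM. Together mt-Co1 and mt-Co3 held 74.0% to 81.2% of the mitochondrially encoded counts. The median level was 152 FPKM for the 7 mitochondrially encoded complex I genes, and 33.2 FPKM for the 36 nuclear complex I genes. Among nuclear genes, the medians were 72.8 FPKM in complex II, 65.0 in complex III, 81.8 over the 16 tested genes of complex IV and 94.5 over the 18 of complex V. The 8 complex I assembly factors lay lower, from 1.14 FPKM for Ndufaf4 to 11.7 FPKM for Ndufaf1. The highest nuclear member was Atp5b, the catalytic beta subunit of the ATP synthase, at 425 FPKM, and the highest of complex IV was Cox4i1, the common isoform of subunit 4, at 258 FPKM.

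The mitochondrially encoded genes were lower in 1 library, 3M replicate 2, than in all others. All 13 had their lowest CPM there. Their summed level was 11637 and 10820 CPM in the 2W libraries, 11602 and 11896 CPM in the 6W libraries, and 10827 and 8206 CPM in the 3M libraries. The first 3M library thus lay at the level of the second 2W library, and the second 3M library lay apart. Nuclear members summed to 6816 and 6434 CPM at 2W, 6801 and 7118 CPM at 6W, and 6244 and 6544 CPM at 3M. The ratio of mitochondrially encoded to nuclear counts was 1.67 to 1.73 in the other 5 libraries and 1.25 in 3M replicate 2. This sum and ratio were mostly mt-Co1 and mt-Co3. Without these genes, the sum was 3031 and 2251 CPM at 2W, 2575 and 2952 at 6W, and 2313 and 1545 at 3M. The other mitochondrially encoded genes thus also differed between the 2W libraries. Red blood cell genes moved the other way in 3M replicate 2. The 5 listed genes, Hba-a1, Hba-a2, Hbb-bs, Hbb-bt and Alas2, summed to 2160 CPM in 3M replicate 2 and to 401 to 814 CPM in the others. Their part in the mitochondrial values was not tested.

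**Figure D1:**
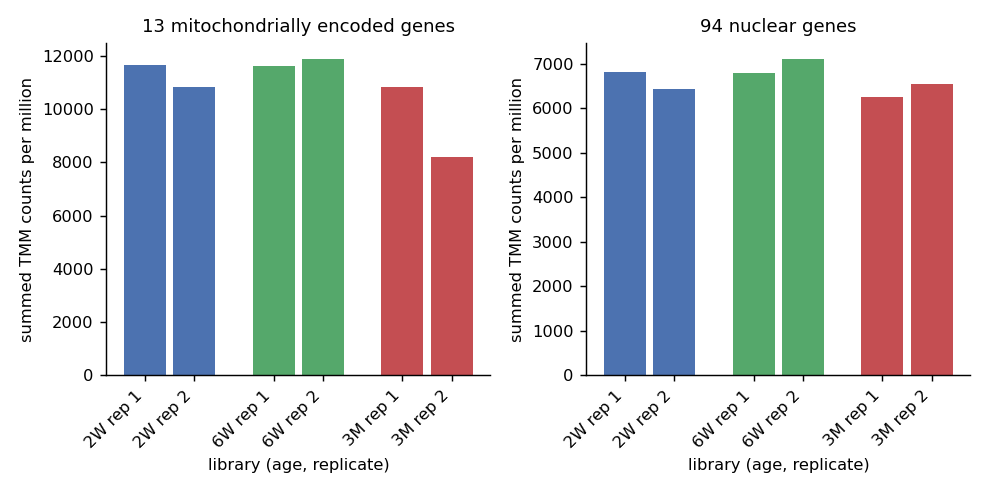
Summed TMM-scaled CPM (vertical axes, starting at 0) of the 13 mitochondrially encoded genes and of the 94 nuclear genes in each of the 6 libraries, coloured by age. The mitochondrially encoded sum is 8206 in 3M replicate 2 and at least 10820 elsewhere, while the nuclear sum stays between 6244 and 7118.

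Single genes gave the same picture to different degrees. The level of mt-Co1, the core subunit of complex IV that reduces oxygen, was 5743 and 5813 CPM at 2W, 5802 and 5834 CPM at 6W, and 5731 and 4580 CPM at 3M. It was flat over 5 libraries, and its log2 fold change at 3M relative to 6W was -0.17 (standard error (SE) 0.11, adjusted p = 0.503). That of mt-Co2, the subunit that takes electrons from cytochrome c, was 652 and 402 CPM at 2W, 529 and 635 at 6W, and 380 and 289 at 3M. Both 3M libraries lay under all others, but the 2W libraries lay further apart than the 6W libraries. At 3M relative to 6W its log2 fold change was -0.80 (SE 0.25, adjusted p = 0.27), and with DESeq2 it was called (adjusted p = 0.0243). For mt-Cytb, the cytochrome b of complex III, the libraries held 606 and 457, then 588 and 631, then 476 and 344 CPM. The gene mt-Nd6 did not follow the rest. It was at 127 and 159 CPM at 2W, 116 and 103 CPM at 6W, and 161 and 100 CPM at 3M, highest in 2W replicate 2 and 3M replicate 1. Of the 13 genes it had the only log2 fold change above 0 at 3M relative to 6W (0.26, SE 0.23, adjusted p = 0.646), which became -0.11 with 3M replicate 1 left out. With the length trend described below taken out, mt-Nd4l, mt-Nd3 and mt-Atp8 also lay above 0.

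The other genes of complexes IV and V on mitochondrial DNA were also lowest in 3M replicate 2. mt-Co3, a structural subunit of complex IV, was at 2862 and 2756 CPM at 2W, 3226 and 3109 at 6W, and 2782 and 2082 at 3M, with a log2 fold change of -0.38 at 3M relative to 6W (adjusted p = 0.305). mt-Atp6, the proton channel subunit of the ATP synthase, was at 471 and 333, then 403 and 501, then 342 and 209 CPM (-0.71, adjusted p = 0.315). For both genes the 6W libraries lay above the 3M libraries. mt-Atp8, the small ATP synthase gene that overlaps mt-Atp6, was at 7.84 and 4.97, then 5.62 and 5.69, then 4.69 and 2.73 CPM.

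The complex I genes of mitochondrial DNA encode its membrane arm. mt-Nd1 was at 244 and 201 CPM at 2W, 199 and 227 at 6W, and 216 and 128 at 3M. mt-Nd2 was at 157 and 111, then 125 and 167, then 145 and 79.3 CPM. For mt-Nd1 and mt-Nd2 the first 3M library lay between the 6W libraries. mt-Nd3 was at 70.7 and 59.3, then 65.0 and 64.7, then 53.6 and 31.8 CPM, both 3M libraries below all others. mt-Nd4 was at 398 and 308, then 334 and 365, then 332 and 225 CPM, and mt-Nd4l at 34.0 and 26.3, then 32.3 and 28.5, then 36.9 and 22.1 CPM. In mt-Nd4l the 3M libraries were the highest and the lowest of the 6.

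**Figure D2:**
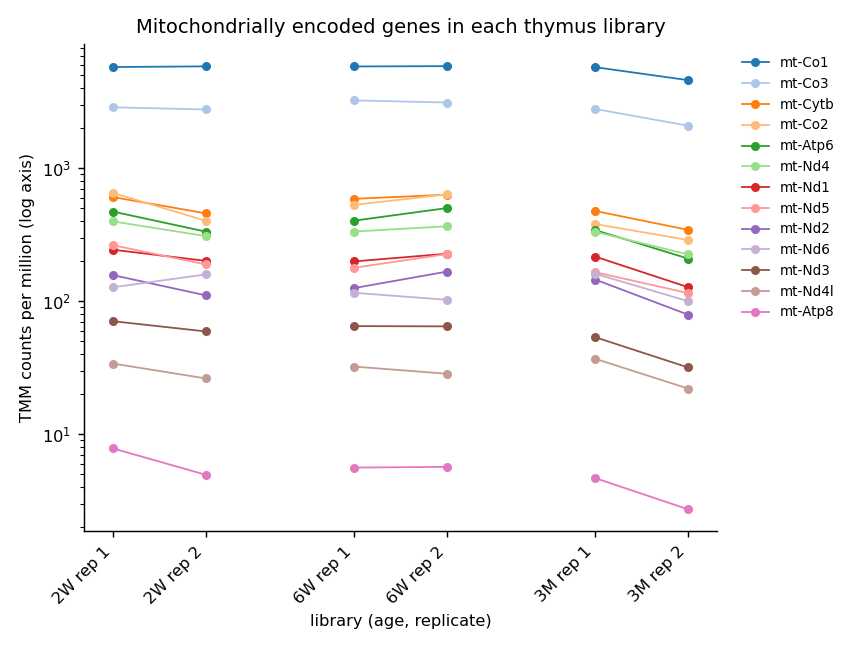
Level of each mitochondrially encoded gene (TMM CPM, log axis) in the 6 libraries, with a line joining the 2 libraries of an age. Every gene is lowest in 3M replicate 2, and mt-Nd6 is highest in 3M replicate 1 and next highest in 2W replicate 2.

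At 6W relative to 2W, no mitochondrially encoded gene had an unadjusted p under 0.05, and their median log2 fold change was 0.01. Of the 103 members tested, none had an adjusted p under 0.05 in edgeR's quasi-likelihood test, while 1.74% of all 14805 genes tested did. DESeq2 called none either, and edgeR's exact test called Cox8b (adjusted p = 0.0374). At an unadjusted p under 0.05, 3 members were higher and 0 lower. Over all genes, 11.4% were higher and 7.49% lower at this p. The members' count was below this background but rested on single libraries, since 20 were higher and 1 lower without 2W replicate 1, none passed without 6W replicate 2, and 8 were higher and 1 lower in a fit of the 4 libraries compared. For 23 members both 6W libraries lay above both 2W libraries, 22.3% against 28.0% of all genes, and for 10 both lay below, 9.71% against 29.8%. The median of the nuclear members was 0.12, that of all genes -0.01, and 75 of the 103 (72.8%) lay above 0, against 49.2% of all genes. This shift also went with length. The median was 0.25 for the 33 nuclear members under 700 bases and 0.30 for all genes of that length, of which 83.9% lay above 0, and it was 0.00 for the 23 nuclear members of 1200 bases or more. With the trend on transcript length taken out, the nuclear median was -0.04.

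The 3 members with an unadjusted p under 0.05 were Cox8b, described below, Atp5sl and Atp5mpl. Atp5sl is represented by 1 assembled transcript, so that it has no value when assembled transcripts are left out. It was at 1.83 and 1.16 CPM at 2W, 3.10 and 3.44 at 6W, and 2.10 and 2.55 at 3M. Both 6W libraries were the highest, and its log2 fold change was 1.12 at 6W relative to 2W (SE 0.34, adjusted p = 0.159). Atp5mpl, a small membrane proteolipid that goes with the ATP synthase, was at 44.7 and 39.4 CPM at 2W, 53.9 and 54.3 at 6W, and 37.9 and 40.2 at 3M. It was highest at 6W, with 2 libraries that differed little, and its log2 fold change was 0.36 (SE 0.11, adjusted p = 0.17). Next in order of p were Uqcrb of complex III at 0.35 and Cox5a, a matrix-side subunit of complex IV, at 0.21, which turned to -0.04 with the length trend taken out. On the lower side, the smallest p belonged to Atp5s (-0.69), Cox6b2, the testis isoform of subunit 6b (-0.85), mt-Nd6 (-0.39), Ndufaf6 (-0.50) and Ndufs1, the largest subunit of complex I (-0.23), and their adjusted p ran from 0.314 to 0.441.

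Between 6W and 3M, more members were lower than in the whole table, though edgeR's quasi-likelihood test called none after adjustment. In edgeR's quasi-likelihood test 0 of 103 members passed at an adjusted p under 0.05, against 0.00675% of all genes. DESeq2 called 4 members lower, Atp5j, Atp5j2, Atp5mpl and mt-Co2, and edgeR's exact test called Atp5j. At an unadjusted p under 0.05, 30 members were lower and 0 higher. That is 29.1% of the members, whereas 6.46% of all genes were lower and 7.81% higher. For 60 members both 3M libraries lay below both 6W libraries, 58.3% against 23.3% of all genes, and for 7 both lay above, 6.80% against 25.9%. The median log2 fold change was -0.38 for the mitochondrially encoded members, -0.21 for the nuclear members and 0.02 for all genes. Markers of double-positive thymocytes were lower too. Of the 7 listed, Rag1, Rag2, Dntt, Cd8b1, Ptcra, Themis and Arpp21, 4 were lower at 3M relative to 6W at an unadjusted p under 0.05 and none was called, with a median log2 fold change of -0.24, and their sum was 13260 and 15299 CPM at 2W, 12330 and 12173 at 6W, and 11266 and 10678 at 3M. Rag1 held most of this sum. The part of these markers in the members' values was not tested. The members' count rested on single libraries. Leaving out 6W replicate 2 left 3 members lower, leaving out assembled transcripts left 19, and leaving out 3M replicate 1 left 18. The mitochondrially encoded median became -0.24 when 3M replicate 2 was left out and -0.80 when 3M replicate 1 was.

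By complex, the 30 included 12 of the 36 nuclear genes of complex I and 1 of its 8 assembly factors. They also held 2 of 8 nuclear genes of complex III, 5 of 16 of complex IV and 5 of 18 of complex V. The other 5, of 13, were mitochondrially encoded (mt-Co2, mt-Co3, mt-Cytb, mt-Atp6 and mt-Nd3). None of the 4 genes of complex II was among the 30, and 4 genes are too few to set it apart from the 29.1% of all members. Differences between complexes were not tested. Of the 103, Atp5mpl had the smallest p, with a log2 fold change of -0.47 (SE 0.11, edgeR adjusted p = 0.23). With the trend on transcript length described below taken out, it turned to 0.10. Atp5j, the coupling factor 6 of the stalk between the 2 parts of the ATP synthase, was at 35.7 and 22.0 CPM at 2W, 32.6 and 40.8 at 6W, and 16.8 and 20.5 at 3M. Its 3M libraries were the lowest of the 6, and its log2 fold change was -0.98 (SE 0.25, adjusted p = 0.232). Ndufa11, an accessory membrane subunit of complex I, was at 20.0 and 14.9, then 20.5 and 26.0, then 10.5 and 15.4 CPM, so that the higher 3M library lay above the lower 2W library. Ndufa2, an accessory subunit of the matrix arm of complex I, had 16.9 and 9.87, then 16.5 and 17.8, then 7.34 and 10.2 CPM, with the second 2W library between the 3M libraries. Their log2 fold changes were -0.84 and -0.96 (adjusted p = 0.25 and 0.255). Cox5b, a zinc-binding subunit of complex IV, was at 10.9 and 7.30, then 10.9 and 11.5, then 6.50 and 6.90 CPM (log2 fold change -0.74, adjusted p = 0.263). Atp5j2, the f subunit of the ATP synthase, was at 27.4 and 10.6, then 20.7 and 33.7, then 8.42 and 11.9 CPM (-1.41, adjusted p = 0.278), with a 2W library inside the 3M range. On the higher side, Ndufaf4 (0.69), Ndufab1, the mitochondrial acyl carrier protein (0.21), Uqcrc2, a core subunit of complex III (0.19), Ndufaf6 (0.41) and Ndufs1 (0.19) had the smallest p, and their adjusted p was 0.457 to 0.587. Ndufaf6 turned to -0.63 with assembled transcripts left out.

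The lower values went with short transcripts. Transcript lengths were derived from the ratio of the deposited counts to FPKM. Of the 33 nuclear members under 700 bases, 28 lay below 0 at 3M relative to 6W, with a median log2 fold change of -0.33, and 11 of them (33.3%) were lower at an unadjusted p under 0.05. Among all 385 tested genes of this length the median was -0.33 as well, and 31.7% were lower. The 34 nuclear members of 700 to 1200 bases had a median of -0.22, with 12 (35.3%) lower, beside -0.19 and 14.4% for the 1190 genes of that length. The 23 nuclear members of 1200 bases or more had a median of 0.00, with 2 (8.70%) lower, beside 0.04 and 5.01% for 13230 genes. When the trend of each library with transcript length was taken out before the fit, a step chosen after the data were seen, 6 members were lower and 4 higher in place of 30 and 0. The nuclear median then became 0.03 and the mitochondrially encoded median -0.10.

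**Figure D3:**
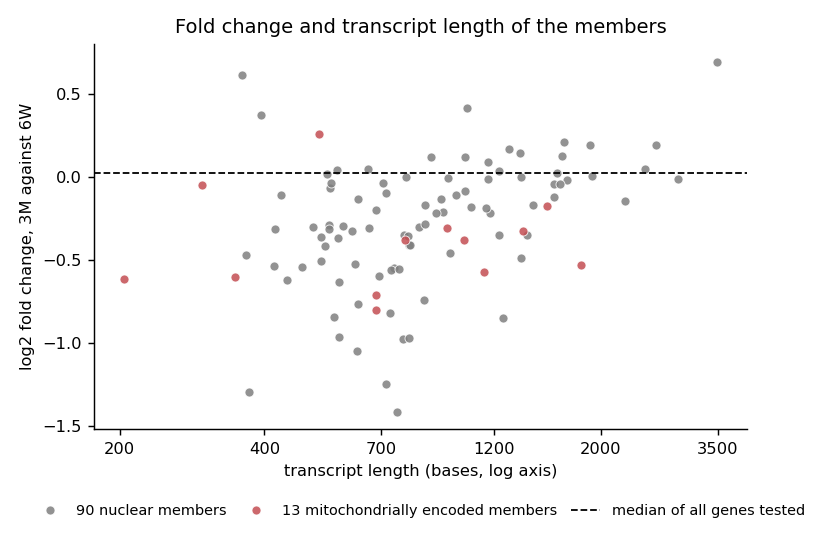
Log2 fold change at 3M relative to 6W (vertical axis) of the 103 tested members against transcript length in bases (log axis), nuclear members in grey and mitochondrially encoded members in red. The dashed line is the median of all genes tested, 0.02, and the nuclear members of 1200 bases or more lie around it with a median of 0.00. The mitochondrially encoded members of that length and most shorter members lie below.

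The same pattern divided libraries of one age. Each gene was set against its own mean over the 6 libraries on the log2 scale. The short nuclear members had a median difference of 0.11 in 2W replicate 1 and -0.20 in 2W replicate 2, of 0.14 and 0.29 in the 6W libraries, and of -0.26 and -0.11 in the 3M libraries. So 2W replicate 2 lay on the side of the 3M libraries and 2W replicate 1 on that of the 6W libraries. For all genes of that length the medians were 0.08, -0.28, 0.19, 0.35, -0.25 and -0.04 in the same order. Nuclear members of 1200 bases or more stayed between -0.04 and 0.03. Of the 90 nuclear members, 43 were highest in 6W replicate 2 and 46 were lowest in 3M replicate 1. Across the 90, Spearman's rho of length with the difference ran from -0.54 in 6W replicate 2 to 0.47 in 2W replicate 2, and across all genes from -0.31 to 0.20. These are descriptions over genes, which share a library and are not replicates. With 2 libraries at an age, the age and the length trend of its libraries cannot be told apart.

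**Figure D4:**
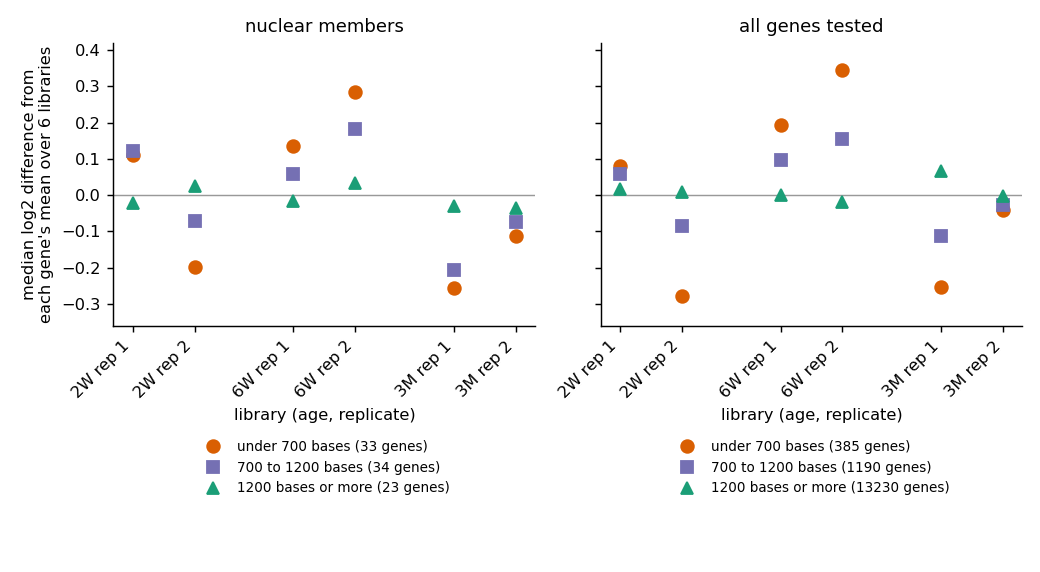
Median log2 difference of each gene from its mean over the 6 libraries (vertical axis), by library and by transcript length class, for the 90 nuclear members on the left and all genes tested on the right. Genes under 700 bases are highest in 6W replicate 2 (0.29 and 0.35) in both panels. They lie below 0 in 2W replicate 2 and in both 3M libraries, and the members of 1200 bases or more stay near 0.

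Some long and catalytic subunits hardly varied. Atp5a1, the alpha subunit of the ATP synthase, was at 868 and 845 CPM at 2W, 850 and 847 at 6W, and 848 and 908 at 3M. Its coefficient of variation over the 6 libraries was 2.85%. It was 3.75% for Ndufv1, the complex I subunit that binds NADH, and 4.36% for Atp5b. None of the 4 genes of complex II had an unadjusted p under 0.05 in any comparison. Over all genes, 11.4% were higher and 7.49% lower at this p at 6W relative to 2W. The shares were 7.81% and 6.46% at 3M relative to 6W, and 16.7% and 10.6% at 3M relative to 2W. A count over 4 genes does not set complex II apart from these shares. Sdha, the flavoprotein that oxidises succinate, was at 269 and 243, then 278 and 275, then 276 and 272 CPM. Sdhb, its iron-sulphur partner, ranged from 101 to 125 CPM, and the membrane anchors Sdhc and Sdhd ranged from 77.0 to 91.5 and from 71.4 to 84.6 CPM. Their log2 fold changes at 3M relative to 2W were 0.10, 0.15, -0.05 and 0.11, with adjusted p of 0.473 to 0.815. At the other end of the range were Cox8b at 67.9%, Atp5g2 at 63.8%, Atp5k at 60.1% and Atp5j2 at 54.3%.

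At 3M relative to 2W, 1 member had an adjusted p under 0.05, Cox8b, whereas 11.0% of all genes had. At an unadjusted p under 0.05, 2 members were higher and 9 lower. Over all genes 16.7% were higher and 10.6% lower. The members' counts lay below both shares but rested on the 2W libraries, with 3 higher and 20 lower without 2W replicate 2, and 2 higher and 1 lower without 2W replicate 1. Scaled by total counts alone, 2 were higher and 5 lower. All 13 mitochondrially encoded genes lay below 0 in the fit, but mt-Nd4l turned to 0.03 under that scaling, mt-Nd4l and mt-Nd6 turned with the length trend taken out, and mt-Nd2, mt-Nd4l and mt-Nd6 each turned under 2 of the 4 fits that leave out a library. Their median log2 fold change was -0.37, and leaving out 3M replicate 2 or 3M replicate 1 moved it to -0.12 or -0.73. The nuclear median was -0.09 and that of all genes -0.03, and the nuclear median ran from -0.19 to -0.02 as 1 library was left out and was 0.00 with the length trend taken out. The second member that was higher was Cox5a, at 73.0 and 75.6 CPM at 2W, 85.4 and 86.7 at 6W, and 88.5 and 88.9 at 3M. Its libraries agreed closely at each age, and its log2 fold change was 0.26 (SE 0.10, adjusted p = 0.158). The next 3 by p on this side were Atp5sl (0.64), Ndufaf4 (0.50) and Cox8a (0.18), with adjusted p of 0.284 to 0.465. Ndufaf4 and Cox8a each turned to just below 0 when 1 of the 3M libraries was left out. On the lower side, Ndufs4, an accessory subunit of complex I, was at 59.1 and 52.7, then 51.7 and 55.4, then 43.9 and 40.2 CPM, for a log2 difference of -0.41 (SE 0.12, adjusted p = 0.0752). mt-Nd5, a proton-pumping subunit of complex I, was at 264 and 189, then 178 and 226, then 165 and 115 CPM (log2 fold change -0.69, adjusted p = 0.118). DESeq2 called both, with mt-Co2. The other 2 of the 5 lower members with the smallest p were Ndufaf2 (-1.59, at 0.403 to 1.77 CPM) and Ndufv3 (-0.69), with adjusted p of 0.122 and 0.15.

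Cox8b, the isoform of subunit 8 of complex IV known from heart, skeletal muscle and brown fat, rose between 2W and 3M from a low level. Its estimated counts were 2 and 9 at 2W, 25 and 40 at 6W, and 44 and 43 at 3M. In CPM these were 0.126 and 0.552, then 1.21 and 1.77, then 2.65 and 1.93, so that the 3 ages did not overlap. Over all genes, both 6W libraries lay above both 2W libraries in 28.0%, and both 3M libraries above both 6W libraries in 25.9%. The mean of Cox8b was 0.339 ± 0.301 CPM (SD, n = 2) at 2W and 2.29 ± 0.509 CPM (SD, n = 2) at 3M. Its log2 fold change at 3M relative to 2W was 2.72 (SE 0.63, edgeR adjusted p = 0.0426). At 6W relative to 2W it was 2.11 (SE 0.64, adjusted p = 0.161). The call was lost without any 1 of the 2W and 3M libraries, and without both 6W libraries. A replicate block, symbols not joined over case, and leaving out assembled transcripts each lost the call too. Without 2W replicate 2 the log2 fold change was 4.11, and without 2W replicate 1 it was 2.03. Leaving out each of the 4 libraries compared in turn gave an adjusted p of 0.055 to 0.125, and over the other alternatives it was 0.000822 to 0.0835. Cox8a, the isoform of most tissues, was at 51.8 and 45.4, then 54.5 and 58.6, then 49.3 and 60.8 CPM, so that its 6W libraries lay above its 2W libraries and its 3M libraries overlapped both other ages. On the FPKM scale, Cox8b made up 0.368% and 1.83% of the subunit 8 genes at 2W and 7.59% and 4.62% at 3M.

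Genes of fat cells were also at their highest in the 3M libraries. Ucp1, the uncoupling protein of brown fat, was at 4.43 and 34.4 CPM at 2W, 15.3 and 27.9 at 6W, and 66.6 and 48.1 at 3M. The 5 listed brown adipocyte genes (Ucp1, Cidea, Elovl3, Dio2 and Slc27a2) summed to 15.4 and 54.9, then 33.1 and 49.0, then 115 and 72.7 CPM. Of these, 1, Elovl3, had an adjusted p under 0.05 at 3M relative to 2W. The 6 white adipocyte genes (Adipoq, Lep, Plin1, Cfd, Fabp4 and Retn) summed to 38.4 and 36.8, then 126 and 132, then 296 and 149 CPM. By edgeR, all 6 were higher at 3M relative to 2W at an unadjusted p under 0.05, and 5 at an adjusted p under 0.05. Of all genes, 11.0% had an adjusted p under 0.05 there in either direction. The 10 listed skeletal muscle genes summed to 32.7 and 22.1, then 24.3 and 27.9, then 18.6 and 23.9 CPM. Most of that sum was Actn3 and Mylpf, at 12.6 to 18.7 and 4.39 to 9.80 CPM, while Acta1 and Ckm, the muscle actin and creatine kinase, were at 0 to 1.07 and 0.180 to 0.379 CPM. Of the 3 muscle genes tested, 1 was higher and 1 lower at 3M relative to 2W at an unadjusted p under 0.05, and edgeR called none. The 7 heart muscle genes summed to 1.34 to 2.60 CPM. The part of adipocytes or muscle in the Cox8b values was not tested.

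No other restricted isoform was called in any comparison. Cox7a1, the muscle and brown fat isoform of subunit 7a, was at 1.01 and 2.70 CPM at 2W, 1.65 and 2.43 at 6W, and 2.89 and 2.42 at 3M. Its 2W libraries lay further apart than its 3M libraries (log2 fold change at 3M relative to 2W 0.51, edgeR adjusted p = 0.56). Cox7a1 made up 0.616% to 1.94% of the FPKM of the subunit 7a genes, beside Cox7a2 at 57.9% to 61.8% and Cox7a2l, a factor of supercomplexes, at 36.9% to 40.6%. Cox6b1 held at least 98.2% of subunit 6b, Cox6a2 made up at most 2.04% of subunit 6a, and Cox4i2 at most 0.135% of subunit 4. The c subunit of the ATP synthase rotor, which 3 genes encode as the same mature protein, came by FPKM from Atp5g3 (68.8% to 74.1%), Atp5g1 (24.6% to 29.2%) and Atp5g2 (0.831% to 2.91%). Ndufa4, a subunit of complex IV despite its name, exceeded its relative Ndufa4l2, which made up 0.769% to 1.21% of the pair.

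**Figure D5:**
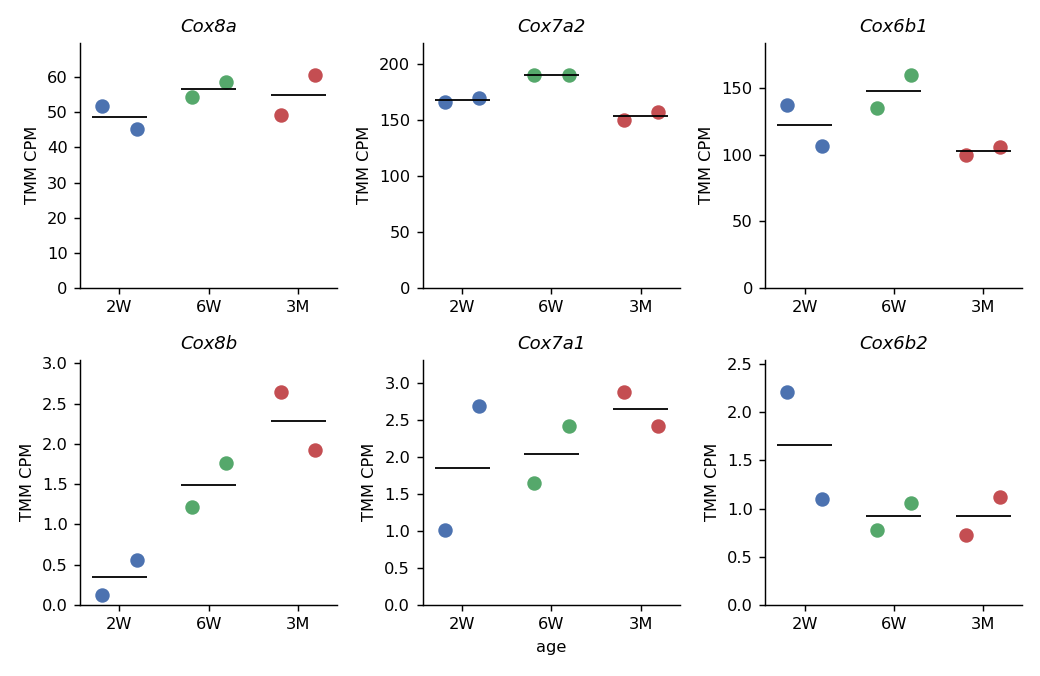
Level (TMM CPM, axes starting at 0) of 3 isoform pairs of complex IV subunits by age, common isoform above and restricted isoform below, with a point for each library and a bar at the mean of 2. Cox8b goes from at most 0.552 at 2W to at least 1.93 at 3M, while the 3M libraries overlap those of 2W and of 6W for Cox8a, Cox7a1 and Cox6b2.

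Promoter sequences are shown for Cox8b, the member called, for Cox8a, its counterpart, and for Ndufa11, a short complex I member lower at 3M than at 6W. They run from 250 bases before to 30 bases after the annotated start, 5′ to 3′ on the gene's strand, in lower case with motif matches in capitals, from RefSeq (GRCm38.p6). The motifs searched on both strands were GCGCANGCG for NRF1, CCGGAAG for ETS factors such as GABPA, AANATGGC for YY1 and TATAAA for a TATA box. NRF1 and GABPA are known regulators of nuclear respiratory chain genes.
Cox8b (chr7:140900417-140900696, minus strand): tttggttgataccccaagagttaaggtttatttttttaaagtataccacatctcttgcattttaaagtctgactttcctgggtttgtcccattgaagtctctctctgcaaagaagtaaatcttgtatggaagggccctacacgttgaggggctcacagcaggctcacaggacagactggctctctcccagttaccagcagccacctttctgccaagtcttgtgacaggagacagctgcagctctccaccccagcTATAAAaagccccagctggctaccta
Cox8a (chr19:7217587-7217866, minus strand): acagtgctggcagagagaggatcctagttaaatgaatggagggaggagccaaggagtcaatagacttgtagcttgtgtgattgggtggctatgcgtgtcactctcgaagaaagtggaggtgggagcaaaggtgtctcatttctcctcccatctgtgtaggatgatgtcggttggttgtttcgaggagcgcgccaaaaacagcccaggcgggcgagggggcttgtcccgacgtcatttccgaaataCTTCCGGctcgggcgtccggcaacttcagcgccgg
Ndufa11 (chr17:56717512-56717791, plus strand): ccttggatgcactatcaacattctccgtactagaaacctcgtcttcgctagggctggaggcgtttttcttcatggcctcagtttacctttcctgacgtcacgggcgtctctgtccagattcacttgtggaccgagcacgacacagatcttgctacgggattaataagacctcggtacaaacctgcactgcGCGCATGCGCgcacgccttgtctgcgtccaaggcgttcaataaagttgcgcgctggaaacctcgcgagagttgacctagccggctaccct
The capitals mark the letters TATAAA in Cox8b, which here lie just past the annotated start and not before it, an ETS motif in Cox8a and a pair of overlapping NRF1 matches in Ndufa11. RefSeq promoters of the full window (250 bases before to 50 after the start) were matched for 77 of the 94 nuclear members, 83 promoters in all. The NRF1 motif was in 27.7% of them, against 6.25% of all 32851 promoters. The ETS motif was in 21.7% against 8.86%, the YY1 motif in 25.3% against 6.05% and the TATA box in 9.64% against 13.6%. These are matches of letters and were not tested as sites.

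None of the 27 tested genes of mitochondrial DNA transcription and RNA processing had an adjusted p under 0.05 in any comparison by edgeR. At an unadjusted p under 0.05, 6 of the 27 were lower at 6W relative to 2W, where 7.49% of all genes were. Supv3l1, a mitochondrial RNA helicase (-0.36), and Polg2 (-0.50) had the smallest p. At the same threshold, 1 was lower at 3M relative to 6W and 2 at 3M relative to 2W, where 6.46% and 10.6% of all genes were. Tfam, which packs mitochondrial DNA, was at 61.2 and 81.6, then 64.4 and 68.7, then 78.0 and 64.7 CPM. Of the 11 regulators of mitochondrial genes, none was called in any comparison, and at an unadjusted p under 0.05 1 was higher and 1 lower, both at 3M relative to 2W, where 16.7% of all genes were higher and 10.6% lower. Ppargc1a, the coactivator known for mitochondrial biogenesis, lay 1.23 higher on the log2 scale at 3M relative to 2W (adjusted p = 0.149). Nrf1 had -0.28 (adjusted p = 0.124). Of the 37 tested assembly factors outside the chosen prefixes, none was called. At an unadjusted p under 0.05, 2 were lower at 6W relative to 2W, 1 was higher and 2 lower at 3M relative to 6W, and 3 were lower at 3M relative to 2W, where 7.49%, 6.46% and 10.6% of all genes were lower. Ttc19, an assembly factor of complex III, had the smallest p at 6W relative to 2W (-0.57, adjusted p = 0.154), and Pet100, one of complex IV, at 3M relative to 6W (-0.69, adjusted p = 0.272).

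Of 4 tested subunits outside the prefixes, Usmg5, a small ATP synthase subunit (-0.48), and Atpif1, the inhibitor of the ATP synthase (-1.13), were lower at 3M relative to 6W at an unadjusted p under 0.05 (both adjusted p = 0.232). Of 78 mitochondrial ribosomal proteins, 13 were lower and 1 higher at that p, where 6.46% of all genes, and 14.4% of those of 700 to 1200 bases, were lower. Their median log2 fold change was -0.15. Of these, Mrps6 alone was called, higher at 3M relative to 2W (0.62, adjusted p = 0.0216). Enzymes of the citric acid cycle and of glycolysis gave 3 calls among 17 and 18 genes tested, all at 3M relative to 2W, where 11.0% of all genes were called. Idh2, the mitochondrial NADP-dependent isocitrate dehydrogenase, fell by 0.53 on the log2 scale (adjusted p = 0.0422). Of the glycolysis genes, Aldoa rose by 0.48 and Eno3 fell by 0.64 (adjusted p = 0.0402 and 0.0407). Proliferation markers were lower at 3M than at 2W, all 5 listed (Mki67, Top2a, Ccnb1, Birc5 and Cdk1) with an adjusted p under 0.05, and their summed level was 3506 and 3500 CPM at 2W, 2813 and 2853 at 6W, and 2367 and 1850 at 3M. The part of proliferation in the members' values was not tested.

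Few circular RNAs came from these genes. Of the 6300 circRNAs in the junction table, 11 were assigned by source gene to 9 members (106 of the 107 members were matched to a gene ID). The junctions from Ndufs1, Ndufa10, Ndufv2, Ndufaf1, Atp5a1, Cox5a, Atp5l, mt-Nd1 and mt-Nd6 summed to 3 to 14 per library, of 10663 to 21914 in all. No single one exceeded 5 counts in a library, so that differences between ages were not detectable at this depth.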

How the data were processed

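Thymus RNA of 6 libraries was depleted of ribosomal RNA and sequenced with strand information. The authors deposited estimated counts and FPKM for 77525 mRNA transcripts (84.1% of the estimated counts above 0 are not exact whole numbers) and junction counts for circRNAs. The labels list Bowtie 0.12.2 and build mm8 without a role, and the quantification program is not given in the sources used here.

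Transcript counts were added up per gene symbol, with spellings in upper and lower case taken as the same gene (665 genes, 0 members), and rounded. Transcripts without a symbol (0.894% of counts) were left out. All 6 libraries were fitted with edgeR 4.0.16 in R 4.3.3 (TMM, filterByExpr, quasi-likelihood F test, age as the only term), with Benjamini-Hochberg adjustment over 14805 genes, and standard errors were taken from the F statistic. The 3 comparisons share libraries. An exact two-sided permutation test cannot go below p = 0.333 here. Transcript length was derived as count over FPKM, with the deposited lncRNA counts added to the library total. Alternatives were DESeq2 1.42.0, total count scaling, scaling on nuclear genes, no filter (at least 1 count), only the 4 libraries compared, a replicate block, edgeR's exact test, exact symbols, assembled transcripts left out, each library left out, and, added after seeing the data, a loess trend on length (span 0.5) taken out. The code was tested on simulated data. Further, 18 columns of per-sample values (miRNA, RPM and lncRNA FPKM) were not used.

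Members, lists and tests were chosen with earlier results of these data known. Named are all mitochondrially encoded genes, Sdha to Sdhd, the isoform genes, members with an adjusted p under 0.05, and the 5 members of each direction with the smallest p per comparison. In other lists, called genes and the 2 with the smallest p could be named. Further genes were named after their values were seen: Atp5j2, Atp5k, Atp5a1, Atp5b, Ndufv1 and Tfam.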

Additional observations from a re-analysis of the deposited data

How the results depend on the processing

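Having 2 libraries per age limits every comparison, and with the transcript length trend left in, short members follow the libraries. For members at an unadjusted p under 0.05 at 6W relative to 2W (3 in the report), total count scaling gave 7 and the 4 libraries compared gave 9. At 3M relative to 6W (30), the replicate block gave 15, leaving out assembled transcripts gave 19 and taking out the length trend gave 10. At 3M relative to 2W (11), total count scaling gave 7, the replicate block 7, leaving out assembled transcripts 7 and the 4 libraries 6. At an adjusted p under 0.05, edgeR's exact test gave 1 member at 6W relative to 2W, 1 at 3M relative to 6W and 2 at 3M relative to 2W, where the report has 0, 0 and 1. DESeq2 gave 4 at 3M relative to 6W and 4 at 3M relative to 2W. In that last comparison the replicate block, exact symbols, leaving out assembled transcripts and the 4 libraries gave 0. Across all genes the share called at an adjusted p at 6W relative to 2W was 0.0338% with the replicate block. Over 14805 genes, the deviations of same-numbered libraries had a correlation of -0.044 for 2W and 6W, -0.126 for 2W and 3M, and 0.335 for 6W and 3M. With 2 libraries per age, these values cannot tell whether same-numbered libraries shared a batch or litter.

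Leaving out 1 library, with the lone library assumed to vary like the others, gave 0 to 21 members at an unadjusted p under 0.05 at 6W relative to 2W (21 without 2W replicate 1, 0 without 6W replicate 2), 3 to 33 at 3M relative to 6W and 3 to 23 at 3M relative to 2W (3 without 2W replicate 1, 23 without 2W replicate 2). At an adjusted p under 0.05 it gave 0 in the first 2 comparisons and 0 to 3 in the last (3 without 3M replicate 1, mt-Co3, mt-Nd1 and mt-Nd3, all lower). The mitochondrially encoded median ran from -0.80 to -0.24 at 3M relative to 6W and from -0.73 to -0.12 at 3M relative to 2W. It ran from -0.14 to 0.19 at 6W relative to 2W. The nuclear median ran from 0.06 to 0.18 at 6W relative to 2W, from -0.33 to -0.17 at 3M relative to 6W and from -0.19 to -0.016 at 3M relative to 2W. Taking out the length trend moved the nuclear median to -0.039 at 6W relative to 2W, to 0.031 at 3M relative to 6W and to 0.0011 at 3M relative to 2W.

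Directions that turned were as follows. With the length trend out, the log2 fold change became -0.043 for Cox5a at 6W relative to 2W. In the 3M to 6W comparison it became 0.095 for Atp5mpl, 0.23 for mt-Atp8, 0.026 for mt-Nd3 and 0.64 for mt-Nd4l, and in the 3M to 2W comparison 0.29 for mt-Nd4l and 0.039 for mt-Nd6. Without assembled transcripts, Ndufaf6 was at -0.63 at 3M relative to 6W. With total count scaling, mt-Nd4l was at 0.030 at 3M relative to 2W. Over the libraries left out in turn, mt-Nd4l ran from -0.45 to 0.23 and mt-Nd6 from -0.11 to 0.51 in the 3M to 6W comparison. In the 3M to 2W comparison, Ndufaf4 ran from -0.0058 to 0.87, Cox8a from -0.013 to 0.35, mt-Nd2 from -0.73 to 0.087, mt-Nd4l from -0.42 to 0.26 and mt-Nd6 from -0.49 to 0.13. The cause of these turns was not tested. Of the 754 values of single members under an alternative, 714 kept their direction and side of the threshold.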
